A study of Mus musculus with 32 samples.

Results

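The genes described here handle arginine, the polyamines made from it, and itaconate. They are Arg1, Arg2, Nos2, Slc7a2, Odc1, Acod1, Ass1 and Asl, 8 of the 55385 genes in the deposited count table, found by their symbols in the authors' deposited day 1 comparison. All 8 passed the filter on low counts and were tested.

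Arginine is a branch point of macrophage metabolism. The transporter encoded by Slc7a2 brings it into the cell, arginases (Arg1 in the cytosol, Arg2 in mitochondria) split it into ornithine and urea, and inducible nitric oxide synthase (Nos2) turns it into nitric oxide and citrulline. Citrulline is rebuilt into arginine by argininosuccinate synthase (Ass1) and argininosuccinate lyase (Asl). Ornithine decarboxylase (Odc1) starts polyamine synthesis from ornithine, and Acod1 makes itaconate from the citrate-cycle intermediate cis-aconitate in activated myeloid cells. Arg1 is a classical gene of repair-type macrophages, and Nos2 and Acod1 of macrophages exposed to bacterial products or interferon.

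The study profiled polyadenylated RNA of EYFP-positive cells sorted from the cerebral cortex 1, 4, 7 and 14 days after a stab wound, in female and male mice. All mice were adult C57BL/6, heterozygous for Cx3cr1CreER, and had received tamoxifen at 8 to 10 weeks of age at 180 mg/kg (30 mg/ml in corn oil) on 5 consecutive days before the wound; both groups share this. The injured group is the wound site and the reference group, named sham in the sample titles, is the matching site of the opposite, non-injured hemisphere, and unoperated mice were not analysed here. The Cre driver Cx3cr1 is active in microglia and also in border-associated macrophages and some blood monocytes, so the sort does not mark microglia alone. For every day, sex and side there are 2 deposited columns, 32 in all, which differ by little more than counting noise (median chi-square per gene 0.475 to 0.639, against 0.455 for noise and 20.9 to 77.0 between the sexes). They were summed into 16 libraries, which form 8 pairs of a wound and a non-injured library of 1 day and sex. Each day has 1 female and 1 male pair. The p-values for injury therefore rest on how far its effect differs between the sexes within a day, so that sex takes the place of a replicate. Nothing in the labels ties samples to individual mice. The spread between mice of 1 sex is thus not measured, and part of the spread between these libraries may be technical.

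Library totals ran from 20863982 to 55378788 estimated reads. Between 14737 and 40975 genes had a count, the fewest in the female day 14 libraries (14737 at the wound, 14777 non-injured). In the day 4 male non-injured library 25.7% of the counts came from the mitochondrial genome, against 0.697% to 7.55% in the other 15. The microglial markers Tmem119 (308 to 7289 CPM) and P2ry12 (149 to 11523 CPM) were present in all 16 libraries. The unit of level is CPM, the count relative to the library total after trimmed-mean (TMM) adjustment. The day 7 male non-injured library stands apart in the genes below, and the changes of Arg1 and Acod1 that it enters are also given without its pair.

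**Figure D1:**
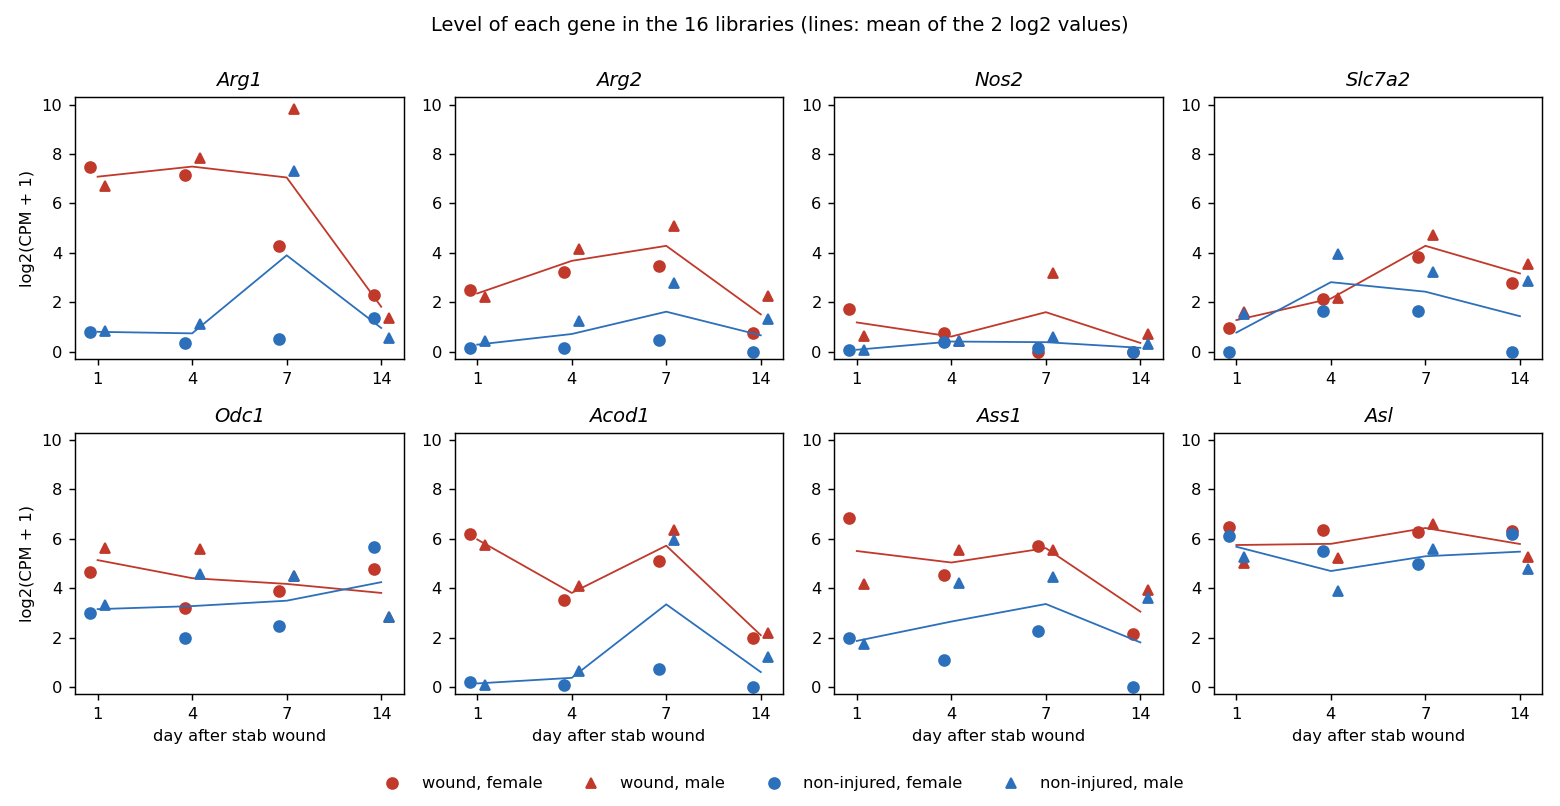
Level of each gene as log2(CPM + 1) (vertical axis) by day after the stab wound (horizontal axis, days spaced evenly) in the 16 libraries; red is the wound and blue the non-injured side, circles are females and triangles males, and lines join the means of the 2 log2 values. Arg1 and Acod1 are near 0 in most non-injured libraries, and the male day 7 non-injured library is the exception for both.

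Across the 4 days, 6 of the 8 genes were called higher at the wound. In edgeR's quasi-likelihood test of the mean of the 4 day effects, with Benjamini-Hochberg adjustment over all 28597 genes tested, Arg1, Arg2, Acod1, Ass1, Odc1 and Asl passed an adjusted p of 0.05, all with a higher level at the wound. Nos2 and Slc7a2 did not pass. The call of Odc1 held in only 1 and that of Asl in only 2 of the 13 alternative fits that keep 1 library per group. In TPM each of these 2 genes was higher at the wound in 4 of 8 pairs. The same test called 7.76% of all genes higher and 7.96% lower. The median log2 change of the 8 genes was 2.57, beside -0.32 over all genes tested. All pairs were higher at the wound for 4 of the 8 genes (Arg1, Arg2, Acod1 and Ass1), and 5.11% of all genes were higher in 8 of 8 pairs. The libraries are bulk samples, in which a larger share of expressing cells and more RNA per cell cannot be told apart.

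Sequences upstream of the start site are shown for Acod1 and Ass1. A 300-base promoter window (250 bases before to 50 after the start, RefSeq, GRCm38.p6, plus strand) was at hand for 3 of the 8 genes, the other being Odc1. The calls of Acod1 and Ass1 for the mean over days held in more of the alternative fits given below than that of Odc1. The windows of Acod1 and Ass1 are shown because they differ in make-up although both genes were higher at the wound. Acod1 (chr14:103046762-103047061) and Ass1 (chr2:31470020-31470319) read 5′ to 3′, with matches to the motifs TATAAA and ACGTG in capitals; the latter reads as CACGT where it lies on the minus strand:
Acod1: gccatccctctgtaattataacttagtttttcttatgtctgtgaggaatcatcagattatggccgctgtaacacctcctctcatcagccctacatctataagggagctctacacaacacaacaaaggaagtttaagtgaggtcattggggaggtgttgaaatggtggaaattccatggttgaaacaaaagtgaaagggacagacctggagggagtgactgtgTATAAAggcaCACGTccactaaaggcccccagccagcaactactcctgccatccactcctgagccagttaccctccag
Ass1: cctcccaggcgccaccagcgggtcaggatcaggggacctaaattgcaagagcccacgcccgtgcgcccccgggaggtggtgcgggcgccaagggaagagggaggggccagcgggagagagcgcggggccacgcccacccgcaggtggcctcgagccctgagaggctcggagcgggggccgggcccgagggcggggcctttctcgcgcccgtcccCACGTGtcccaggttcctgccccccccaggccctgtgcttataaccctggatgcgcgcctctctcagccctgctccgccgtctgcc

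The Acod1 window is 47% G and C and the Ass1 window 74%, beside a median of 52.7% over 32851 promoters, and the Odc1 window (chr12:17544623-17544922) is 78%. With the start base as position 0, Acod1 has TATAAA from position -28 on the plus strand and ACGTG from -18 on the minus strand. Ass1 has ACGTG from -36 on the minus strand and from -35 on the plus strand, which overlap as the palindrome CACGTG. On either strand, the motif TATAAA stands in 13.6% of all promoters and ACGTG, searched as a hypoxia response core, in 19.6%. Only this form of the core was searched. No match was found in the 3 windows to TTGCNNAA (C/EBP, in 10.8% of promoters), TTCNNNGAA (STAT, 8.3%) or TGANTCA (AP-1, 7.81%), with both strands searched. These matches describe letters and were not tested as binding sites.

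The arginases come first. Arg1 (10:24915221-24927484, minus strand, GRCm38) was measured at the wound at 175 CPM in females and 103 in males at day 1, and at 139 and 230 CPM at day 4. Its non-injured libraries held 0.727 and 0.761 CPM at day 1 and 0.266 and 1.20 CPM at day 4. The wound libraries of both days are therefore far above their non-injured partners, with no overlap between the groups. At day 7 the wound held 18.2 CPM in females and 914 in males, and the non-injured side 0.408 and 157 CPM. At day 14 the wound held 3.89 and 1.54 CPM, and the non-injured side 1.60 and 0.450 CPM. The male day 7 non-injured library is thus as high as wound libraries of days 1 and 4, while its own wound partner is the highest of all 16.

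The fitted Arg1 change was 7.51 ± 0.72 (log2, SE) at day 1 with an edgeR adjusted p of 0.00609, and 8.17 ± 0.74 at day 4 with an edgeR adjusted p of 0.00613. The estimate at day 7 was 3.35 ± 0.58 with an edgeR adjusted p of 0.052, and at day 14 it was 1.45 ± 0.81 with an edgeR adjusted p of 0.382. Arg1 thus passed at days 1 and 4, and the estimate for day 14 was the lowest of the 4. The mean over days was 5.12 ± 0.35 with an edgeR adjusted p of 9.78e-05, and Arg1 was higher at the wound in 8 of 8 pairs. Without the day 7 male pair it was 5.66 with an edgeR adjusted p of 0.00104, and the day 7 estimate alone was then 5.51 with an edgeR adjusted p of 0.238. The day 7 change passed when the female or the male day 4 pair was left out (2.94 and 3.08, edgeR adjusted p 0.0275 and 0.0123).

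Arg2 (12:79130777-79156301, plus strand) lay at lower counts. At the wound it held 4.58 CPM in females and 3.69 in males at day 1, 8.25 and 16.6 CPM at day 4, 10.1 and 32.9 CPM at day 7, and 0.707 and 3.75 CPM at day 14. The non-injured libraries held 0.108 and 0.338 CPM at day 1, 0.123 and 1.40 CPM at day 4, 0.379 and 5.82 CPM at day 7, and 0 and 1.50 CPM at day 14. Each wound library was above its partner, and the male non-injured library of day 7 again was the highest of its side.

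Arg2 changed by 4.35 ± 0.83 (log2, SE) at day 4 with an edgeR adjusted p of 0.0287. The estimates of 4.20 at day 1, 3.13 at day 7 and 1.64 at day 14 had edgeR adjusted p-values of 0.0836, 0.0722 and 0.421. The mean over days was 3.33 ± 0.45 with an edgeR adjusted p of 0.00094, in 8 of 8 pairs. In the annotation Arg2 overlaps 2 genes of the other strand, and the library protocol does not keep the strand, so reads from them cannot be told apart.

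At the nitric oxide branch, Nos2 (11:78920787-78960254, plus strand) was at low counts, with 69 counts in the female day 1 and 224 in the male day 7 wound library and at most 27 in any other. The wound held 2.29 and 0.566 CPM at day 1, 0.707 and 0.365 at day 4, 0 and 8.16 at day 7, and 0 and 0.631 at day 14 (females first). The non-injured side held 0.0539 and 0.0563 CPM at day 1, 0.307 and 0.349 at day 4, 0.117 and 0.523 at day 7, and 0 and 0.240 at day 14. A count of 0 allows up to 3 counts, which is 0.102 CPM in the female day 7 wound library, and these limits cover counting error only. The day 7 male wound library was the highest and the other 7 wound libraries stayed at or under 2.29 CPM. Over the 4 days the Nos2 estimate was 2.58 ± 0.82 (log2, SE) with an edgeR adjusted p of 0.0689. The day 1 estimate was 4.59 ± 1.64 with an edgeR adjusted p of 0.245, from 69 against 2 counts in females and 23 against 2 in males. Without the day 7 male pair the mean over days was 0.45, a value that then includes a day 7 estimate from 0 against 4 counts.

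Slc7a2 (8:40862396-40922308, plus strand), the cationic amino acid transporter that feeds both branches, was detected at both sides without passing the test. The wound held 0.929 and 2.04 CPM at day 1, 3.33 and 3.54 at day 4, 13.2 and 25.7 at day 7, and 5.93 and 10.6 at day 14. The non-injured side held 0 and 1.92 CPM at day 1, 2.15 and 14.7 at day 4, 2.10 and 8.33 at day 7, and 0 and 6.30 at day 14. The groups overlap, and the wound was higher in 7 of 8 pairs. The exception was the day 4 male pair, whose non-injured library is the one with 25.7% mitochondrial counts and had the highest neuronal and astrocyte marker sums of all 16 (2813 and 6059 CPM), and the part of that in its level was not tested. Over the 4 days the Slc7a2 estimate was 0.98 ± 0.55 (log2, SE) with an edgeR adjusted p of 0.28. Leaving out 1 pair moved this estimate between 0.60 and 3.22. DESeq2 on all pairs put the Slc7a2 estimate at 1.93 with an adjusted p of 0.0233. Slc7a2 overlaps 1 gene of the other strand, whose reads cannot be told apart from its own.

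**Figure D2:**
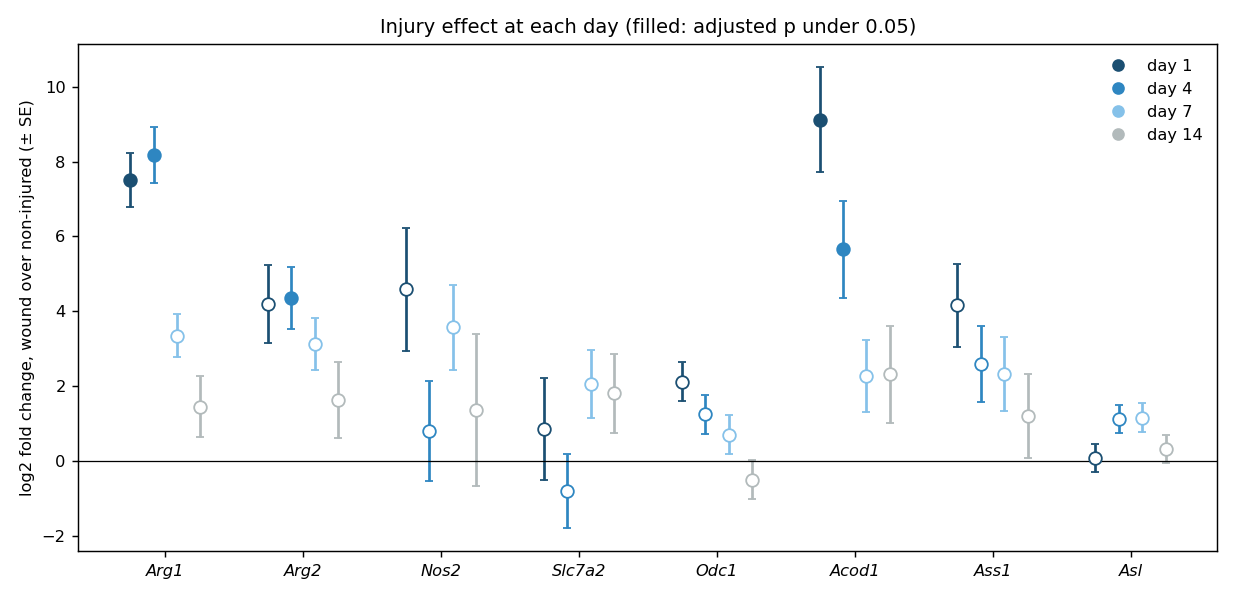
Log2 fold change, wound over non-injured, with its standard error (vertical axis) for each gene (horizontal axis) at days 1, 4, 7 and 14 from dark blue to grey; filled points passed an adjusted p of 0.05. Arg1 and Acod1 are filled at days 1 and 4 and Arg2 at day 4, and no point is filled at days 7 and 14.

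Acod1 (14:103046977-103056573, plus strand), the itaconate enzyme, showed the largest single-day estimate among the 8 genes. Its wound level was 72.1 CPM in females and 53.2 in males at day 1, 10.5 and 16.1 at day 4, 33.0 and 81.1 at day 7, and 2.98 and 3.61 at day 14. Its non-injured level was 0.162 and 0.0563 CPM at day 1, from 6 and 2 counts, and 0.0615 and 0.582 CPM at day 4. It was 0.670 and 61.1 CPM at day 7, and 0 and 1.32 CPM at day 14. Apart from the male day 7 library, no non-injured library reached the level of any wound library.

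The Acod1 change was 9.12 ± 1.41 (log2, SE) at day 1 with an edgeR adjusted p of 0.0186, and 5.66 ± 1.30 at day 4 with an edgeR adjusted p of 0.0479. At day 7 it was 2.27 with an edgeR adjusted p of 0.234, and at day 14 it was 2.32 with an edgeR adjusted p of 0.377. Without the day 7 male pair the day 7 estimate was 5.66, and without the female pair of that day 0.40. The day 14 estimate was 1.44 without the female pair of that day and 9.65 without the male one, the latter from the pair with no non-injured count and so no bound. The mean over days was 4.84 ± 0.63 with an edgeR adjusted p of 0.000692, and 5.69 without the day 7 male pair with an edgeR adjusted p of 0.00104. Acod1 was higher in 8 of 8 pairs in CPM and in 7 of 8 in TPM, the day 7 male pair being the exception. In the female day 14 pair the non-injured library had no count. The wound was 24.3-fold above the 3 counts that counting error alone allows for a 0. The non-injured library had 14777 genes with a count, and 5 of the 8 genes at 0. Loss of transcripts in it is not covered by this limit and was not tested.

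The enzymes that rebuild arginine differed from each other. Ass1 (2:31470207-31520672, plus strand) held 114 and 16.9 CPM at the wound at day 1, 22.5 and 45.2 at day 4, 51.1 and 45.6 at day 7, and 3.49 and 14.3 at day 14. Its non-injured libraries held 2.99 and 2.34 CPM at day 1, 1.13 and 17.6 at day 4, 3.88 and 20.7 at day 7, and 0 and 11.3 at day 14. All wound libraries were above their partners, but wound libraries of days 1 and 14 fell within the range of the male non-injured ones. The mean over days was 2.57 ± 0.52 (log2, SE) with an edgeR adjusted p of 0.0108, and no single day passed. Without the day 1 female pair it was 2.30 with an edgeR adjusted p of 0.108, and without the day 7 female pair 2.28 with an edgeR adjusted p of 0.0569. Without the day 14 male pair it was 4.75 with an edgeR adjusted p of 0.0136, a value that rests at day 14 on the female pair with no non-injured count.

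Asl (5:130011258-130029247, minus strand) was well expressed on both sides. The wound held 87.6 and 31.6 CPM at day 1, 80.9 and 36.8 at day 4, 76.0 and 96.5 at day 7, and 79.5 and 37.1 at day 14. The non-injured side held 67.8 and 37.2 CPM at day 1, 44.5 and 13.8 at day 4, 30.7 and 47.6 at day 7, and 71.4 and 26.6 at day 14. The groups overlap widely and females of days 1, 4 and 14 lie above males on both sides. Asl changed by 0.67 ± 0.19 (log2, SE) over the 4 days with an edgeR adjusted p of 0.041, in 7 of 8 pairs in CPM but in 4 of 8 in TPM. On the TPM scale limma gave 0.20 with an adjusted p of 0.569, and its day 1 estimate turned from 0.07 to -0.27.

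Odc1 (12:17544794-17551505, plus strand), the entry to polyamines, held 24.0 and 48.7 CPM at the wound at day 1, 8.25 and 47.7 at day 4, 13.6 and 21.3 at day 7, and 26.5 and 6.17 at day 14. The non-injured side held 7.00 and 8.90 CPM at day 1, 2.99 and 22.6 at day 4, 4.61 and 21.7 at day 7, and 49.5 and 6.12 at day 14. Both sexes were higher at the wound at days 1 and 4, and the female non-injured library of day 14 was the highest of all 16. The mean over days was 0.89 ± 0.26 (log2, SE) with an edgeR adjusted p of 0.0463, in 6 of 8 pairs in CPM but in 4 of 8 in TPM. On the TPM scale limma gave 0.30 with an adjusted p of 0.487, and its day 7 estimate turned from 0.70 to -0.43. The Odc1 call was lost in each of the 8 fits that left out 1 pair (edgeR adjusted p 0.0555 to 0.192), and the Asl call in 7 of 8 (0.0311 to 0.196).

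By day, the count of the 8 genes called was 2 at day 1 (Arg1 and Acod1), 3 at day 4 (Arg1, Arg2 and Acod1) and 0 at days 7 and 14, all higher at the wound. Over all genes, edgeR called 0.472% higher and 0.58% lower at day 1, and 1.52% higher and 0.521% lower at day 4. It called 0.318% higher and 0.0559% lower at day 7, and 0.0455% higher and 0.014% lower at day 14. At an unadjusted p under 0.05, 5476 of 28597 genes passed at day 7 and 4723 at day 14, and DESeq2 called 2 of the 8 genes at day 7 (Arg1 and Arg2) and 3 at day 14 (Slc7a2, Acod1 and Ass1), beside 12.7% and 12.3% of all genes it gave an adjusted p. The median log2 change of the 8 genes was 4.18, 1.92, 2.30 and 1.41 at days 1, 4, 7 and 14, beside -0.05, -0.20, -0.84 and 0 over all genes. Leaving out either day 1 pair left none of the 8 called at day 1 or at day 4, where edgeR then called 0 of all 33557 or 31995 genes tested, while the estimates of Arg1 (7.07 and 7.90 at day 1, 8.18 at day 4) and of Acod1 (9.78 and 8.76 at day 1, 5.66 at day 4) stayed as high. Leaving out either day 4 pair left 1 of the 8 (Arg1) at day 4. Over the 8 fits without 1 pair, the day 4 calls of Arg2 and of Acod1 were each kept in 2.

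The authors' deposited tables, which compare both sexes together, list an adjusted p under 0.05 for 6 of the 8 genes at day 1 (Arg1, Arg2, Nos2, Odc1, Acod1 and Ass1). At day 4 the authors' deposited table lists 3 (Arg1, Arg2 and Acod1), at day 7 it lists 1 (Nos2) and at day 14 none. Over all 55385 genes in the authors' deposited tables the share is 6.15%, 6.68%, 8.41% and 7% at days 1, 4, 7 and 14, against 28597 genes tested here. For Arg1 the authors' deposited tables give log2 changes of 7.55, 7.72, 2.34 and 1.42 over the 4 days, and for Acod1 9.23, 5.14, 0.60 and 2.14. In the authors' deposited tables for 1 sex, the day 7 change of Acod1 is 5.01 in females and 0.18 in males, and that of Arg1 is 4.87 and 2.32. The tables for 1 sex can only rest on the 2 columns of each side, which differ by little more than counting noise. How the authors' tables for both sexes treat these columns is not given in the sources used here. Their counts of genes are therefore not directly comparable with the calls made here.

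A difference between days was tested directly. The day estimates of Arg1 spanned 6.72 on the log2 scale with an unadjusted edgeR p of 0.000347 and an edgeR adjusted p of 0.675, and those of Acod1 spanned 6.84 with an unadjusted edgeR p of 0.0167 and the same adjusted value. Without the day 7 male pair the spans were 6.71 and 6.78. None of the 8 genes was called, and edgeR called 0% of all genes, with 1819 at an unadjusted p under 0.05. DESeq2 called 208 genes, among them 1 of the 8 (Arg1), and limma on TPM also called Arg1. This test asks for any difference between the 4 days and does not name one.

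Within the wound libraries alone, the spread of Acod1 over days was 4.10 (log2) with an unadjusted edgeR p of 0.000205 and an edgeR adjusted p of 0.103, that of Arg1 was 6.60 with an edgeR adjusted p of 0.317, and that of Slc7a2 was 3.54 with an edgeR adjusted p of 0.375. EdgeR called none of the 8 genes and 0.104% of the 22040 tested there, with 1429 at an unadjusted p under 0.05, and DESeq2 called Slc7a2 and Acod1 among 261 genes. Without the day 7 male pair Arg1 spanned 5.75 there and passed (edgeR adjusted p 0.00418), and Acod1 spanned 4.08 (edgeR adjusted p 0.0845). On the non-injured side the spread of Acod1 was 7.04 with an unadjusted edgeR p of 0.0022 and an edgeR adjusted p of 1, and without the male day 7 pair it was 3.79. There edgeR called none of the 8 and 0% of 24622 genes, with 352 at an unadjusted p under 0.05, and DESeq2 called 9 genes and none of the 8.

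Sex was tested as a difference in the injury effect. For Ass1 the estimated difference was -2.83 ± 0.56 (male minus female, log2, SE), with an unadjusted edgeR p of 0.000287 and an edgeR adjusted p of 0.165. For Acod1 the difference was -4.41 ± 1.06, with an unadjusted edgeR p of 0.00199 and an edgeR adjusted p of 0.344, and without the male or the female day 7 pair it was -2.36 or -2.35. The difference was -2.46 for Slc7a2, -2.35 for Arg2 and -1.37 for Arg1 (edgeR adjusted p 0.559, 0.618 and 0.675). It was 0.14 for Nos2, -0.09 for Odc1 and -0.01 for Asl. None of the 8 genes passed in edgeR, which called 0% of all genes, with 2094 at an unadjusted p under 0.05. DESeq2 called 150 genes including Ass1 (-3.09, adjusted p 0.0207). The male non-injured libraries of days 4, 7 and 14 held 11.3 to 20.7 CPM of Ass1 against 0 to 3.88 CPM in the females, while at day 1 both sexes were at 2.34 to 2.99 CPM. The same 3 male libraries held the highest neuronal marker sums of the non-injured side (2813, 659 and 569 CPM, against at most 174 CPM in the other 5) and the highest astrocyte sums (6059, 4424 and 1848 CPM, against at most 689 CPM). The part of these in the Ass1 levels was not tested.

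Levels can be compared between genes in TPM, the authors' length-adjusted values. At the wound the order of medians over 8 libraries was Arg1 (123 TPM), Asl (47.1), Ass1 (23.8), Odc1 (13.8), Acod1 (8.95), Arg2 (6.39), Slc7a2 (0.698) and Nos2 (0.231). On the non-injured side it was Asl (47.6 TPM), Odc1 (9.62), Ass1 (4.58), Arg1 (1.75), Slc7a2 (0.874), Arg2 (0.638), Acod1 (0.144) and Nos2 (0.0939). Arg1 thus moved from the fourth place to the first and Acod1 from the seventh to the fifth, with Nos2 last on both sides. Neighbours overlap: at the wound Arg1 was above Asl in 5 of 8 libraries, Odc1 above Acod1 in 5 and Asl above Ass1 in 7. The Arg1 median at the wound comes from a range of 2.74 to 579 TPM, so its place depends on the day.

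**Figure D3:**
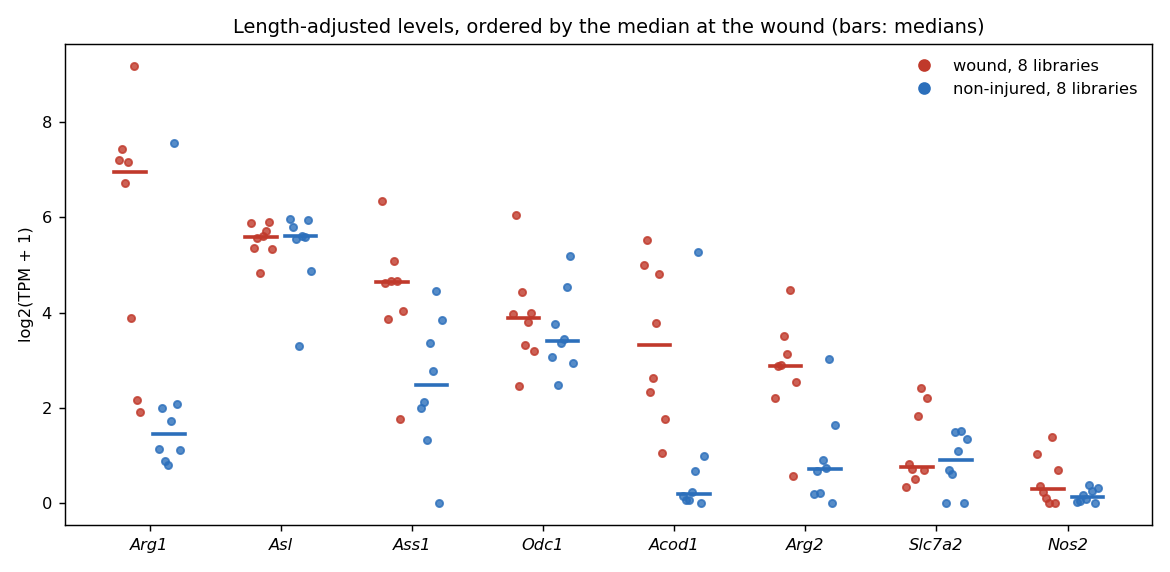
Length-adjusted level as log2(TPM + 1) (vertical axis) of the 8 genes, ordered by the median at the wound; each point is 1 of the 8 wound (red) or 8 non-injured (blue) libraries and bars are medians. Asl has medians of 47.1 and 47.6 TPM on the 2 sides, Arg1 of 123 and 1.75 TPM.

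The 8 genes were also compared with each other over the 16 libraries, as Pearson correlations of log2(CPM + 1), given as descriptions. The points share day, sex and side, so the injury itself contributes to each value. Arg1 and Acod1 had r = 0.91, Arg1 and Arg2 0.87, Arg2 and Ass1 0.85, and Acod1 and Ass1 0.83. Slc7a2 had 0.28 with Arg1 and 0.61 with Arg2. With Arg1, Odc1 had 0.54 and Asl 0.43. Among genes with a symbol that averaged 10 CPM or more, the 3 most like Arg1 were Acod1 (0.91), the protease inhibitor Slpi (0.91) and the oxidoreductase Ero1l (0.90). Acod1 was most like the lectin Clec4e (0.95), Arg1 and the scavenger receptor Msr1 (0.91). Arg2 was most like Chil3 (0.95), Acp5 and Msrb1 (both 0.92). Clec4e and Chil3 are also among the monocyte markers below. Ass1 was most like Irf7 (0.90), Clic4 (0.90) and the creatine transporter Slc6a8 (0.89). Nos2 was most like Hp (0.83), Slpi (0.79) and Saa3 (0.74), and Slc7a2 most like Csgalnact2 (0.85), Gdpd1 (0.83) and Cdo1 (0.81). Odc1 went with Utp18 (0.92), Hnrnpab (0.91) and Ppp1cc (0.91), and Asl with Mcfd2 (0.98), Capza1 (0.96) and Lgals8 (0.95). With Spearman ranks, none of the 3 nearest genes was shared for Arg1, Arg2 and Nos2, and 1 was for Acod1, Ass1 and Asl.

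Blood monocyte markers moved with the same contrast. Of 14 such markers 12 were higher at the wound over the 4 days and 0 lower. Their summed level was 371 to 2713 CPM at the wound and 20.05 to 262 CPM on the non-injured side, higher at the wound in 8 of 8 pairs. The highest non-injured sum, 262 CPM, was in the male day 7 library, the same one that was high in Arg1 and Acod1. That library also held the highest endothelial and mural marker sum of all 16 (738 CPM). Ly6c2 held 2.19 to 83.0 CPM at the wound and 0 to 5.03 CPM on the non-injured side, where 2 libraries were at 0. Ccr2 held 10.9 to 110 CPM at the wound and 0.814 to 15.3 CPM on the non-injured side. The part of these cells in the levels of the 8 genes was not tested.

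Of 12 neutrophil markers 9 were higher and 0 lower, and their summed level was 61.2 to 669 CPM at the wound and 51.8 to 715 CPM on the other side, higher in 5 of 8 pairs. The largest member on average is Csf3r, which microglia also express and which was not called. Without it the sums were 9.34 to 337 CPM at the wound and 0.0822 to 22.6 CPM on the other side, higher in 8 of 8 pairs. S100a8 ranged from 2.51 to 109 CPM at the wound and from 0 to 4.32 CPM on the non-injured side. S100a9 ranged from 0 to 45.0 CPM and from 0 to 0.990 CPM. The granule genes Camp and Ngp were at 0 in the female wound libraries of days 1 and 14, and Camp held at most 5.07 CPM and Ngp at most 18.1 CPM in any library, both in the day 4 male wound library. In the female day 1 wound library, where Camp and Ngp were at 0, Cxcr2 held 26.0 CPM and Mmp9 8.82 CPM, each the highest of all 16 libraries. The part of neutrophils in the levels of the 8 genes was not tested.

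Of 10 border-associated macrophage markers 4 were higher and 1 lower, with sums of 93.3 to 3599 CPM at the wound and 23.2 to 704 CPM on the other side. Mrc1 ranged from 9.99 to 199 CPM and from 3.22 to 314 CPM, and did not pass. Of 8 microglial markers 6 were lower at the wound and 0 higher, with sums of 7703 to 37171 CPM against 9834 to 68116 CPM. Of 10 lymphocyte markers 3 were higher and 1 lower among 9 tested, and the sum, mostly Ighm, was below that of the non-injured partner in each of the 8 pairs. Without Ighm the other 9 summed to 5.09 to 22.2 CPM at the wound and 1.09 to 16.5 CPM on the other side, higher at the wound in 8 of 8 pairs. Of 8 neuronal markers 7 were lower, of 8 endothelial and mural markers 6, of 8 astrocyte markers 2, and of 8 oligodendrocyte lineage markers 3 were lower and 1 higher. The part of these in the 8 genes was not tested.

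**Figure D4:**
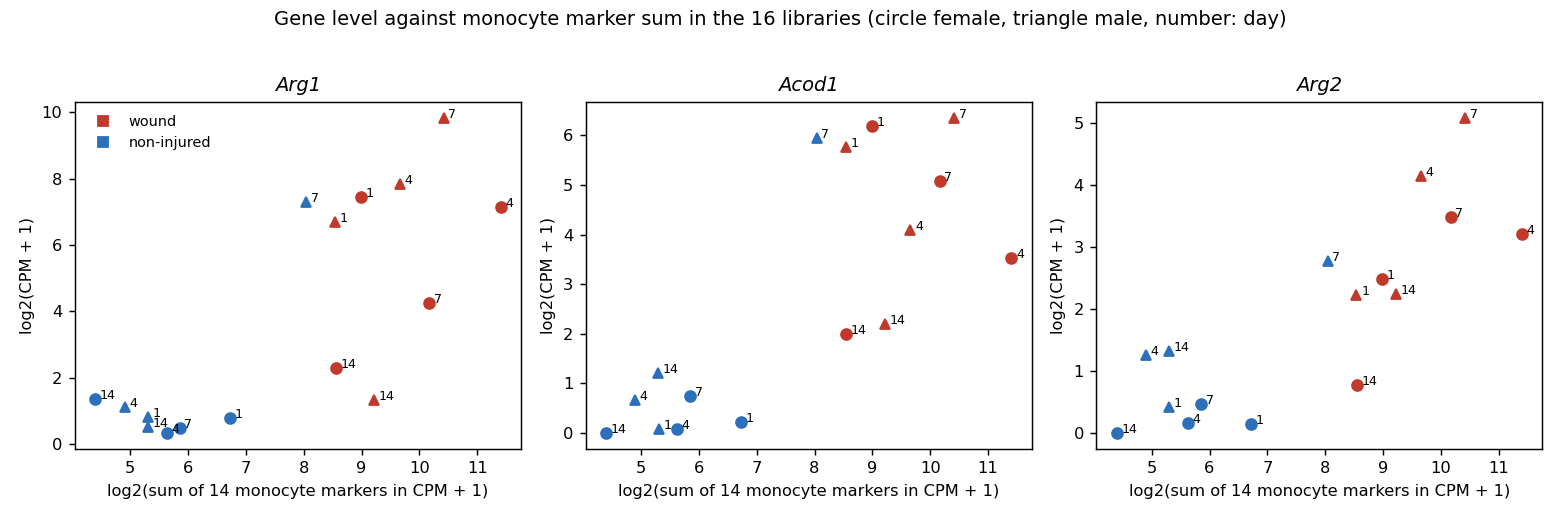
Level of Arg1, Acod1 and Arg2 as log2(CPM + 1) (vertical axes) against the log2 sum of 14 monocyte markers (horizontal axes) in the 16 libraries; red is the wound, blue the non-injured side, circles females, triangles males, and numbers the day. The male day 7 non-injured library lies apart from the other 7 blue points in each panel, and the 2 wound libraries of day 14 (374 and 594 CPM of marker sum) have Arg1 at 3.89 and 1.54 CPM.

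The markers of that sum did not move alike between days 1 and 14. At the wound Clec4e held 52.3 CPM in females and 27.2 in males at day 1 and 0.550 and 6.03 CPM at day 14, while Fn1, the largest member on average, held 167 and 124 CPM at day 1 and 238 and 280 CPM at day 14. These markers were chosen after their values were seen. Without Fn1 the sums were 136 to 1042 CPM at the wound and 17.05 to 184 CPM on the non-injured side, higher at the wound in 8 of 8 pairs.

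The wider pathways were read from 8 lists with 103 genes tested. For the mean over days, 24 of them were higher at the wound and 8 lower (23.3% and 7.8%), against 7.76% and 7.96% of all genes. The medians of the lists ran from -0.06 to 0.43, against -0.32 over all genes, so none of the lists moved by as much as the 8 genes. Of the 32 called pathway genes, 3 (Hif1a, Nos3 and Gucy1b1) passed under each of the 13 alternatives that keep 1 library per group, and none turned its direction. Among those named below, Slc25a13 passed in only 1 of the 13, Got1 and Mtap in 3, and Cebpb, Stat3 and Klf4 in 4. Pycrl, Oaz1, Atp13a2 and Sdhc passed in 5, and Gatm, Gch1 and Sdhb in 6.

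Of 11 genes of arginine uptake and the urea cycle, 2 rose and 0 fell: Slc3a2, the heavy chain of several amino acid transporters (0.73, edgeR adjusted p 0.00944), and the mitochondrial aspartate carrier Slc25a13 (0.97, edgeR adjusted p 0.0461), which at 6.53 CPM was named after its value was seen. The other cationic transporter Slc7a1 (0.31, edgeR adjusted p 0.513) did not pass, and Otc and Cps1, the mitochondrial urea-cycle enzymes, were at or under 0.328 CPM on average. Of 16 genes of ornithine, proline, creatine and dimethylarginine metabolism, 4 rose and 1 fell. The creatine transporter Slc6a8 rose by 1.87, the transaminase Got1 by 1.04 and the proline enzyme Pycrl by 1.01, and glutamine synthetase Glul fell by 1.01 (edgeR adjusted p-values 0.0228, 0.0404, 0.0277 and 0.00945). Gatm, which makes the creatine precursor from arginine, rose by 0.95 and was named after its value was seen. Ornithine aminotransferase Oat, the competitor of Odc1 for ornithine, had 0.65 with an edgeR adjusted p of 0.0761.

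Of 11 polyamine synthesis genes, 2 rose and 0 fell. They were the antizyme Oaz1 (0.83, edgeR adjusted p 0.0362), an inhibitor of ornithine decarboxylase, and Mtap (0.75, edgeR adjusted p 0.0369), which salvages methionine from the by-product of polyamine synthesis. The spermidine synthase Srm had 0.44 with an edgeR adjusted p of 0.137. Of 9 polyamine breakdown and transport genes, the oxidase Paox (0.98, edgeR adjusted p 0.0165) and the lysosomal polyamine exporter Atp13a2 (0.91, edgeR adjusted p 0.0344) rose, and Sat1, at a mean of 2608 CPM, had 0.51 with an edgeR adjusted p of 0.281. Of 4 genes of the spermidine-dependent hypusine modification, Eif5a, its substrate, rose by 1.17 (edgeR adjusted p 0.00516) in 8 of 8 pairs, and the modifying enzymes Dhps (0.36) and Dohh (0.31) did not pass.

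Of 13 genes around nitric oxide, 3 rose and 4 fell. Gch1, the first enzyme of the synthase cofactor tetrahydrobiopterin, rose by 1.69 (edgeR adjusted p 0.0122) from 5.39 to 22.9 CPM on average, and Cyb5r3 rose by 1.04 (edgeR adjusted p 0.0138). The genes that fell were at low levels and were named after their values were seen. Nos1 fell from 2.57 to 0.377 CPM, Nos3 from 7.23 to 2.13 CPM, Gucy1a1 from 8.02 to 0.943 CPM and Gucy1b1 from 6.78 to 0.689 CPM. Nos1 is the neuronal and Nos3 the endothelial synthase, and the summed neuronal and endothelial markers were also below the non-injured side in each of the 8 pairs; their part in these falls was not tested.

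Of 20 genes around citrate, itaconate and succinate, 4 rose and 0 fell. They were the cytosolic isocitrate dehydrogenase Idh1 (1.35, edgeR adjusted p 0.00316) and the succinate dehydrogenase subunits Sdhd (1.18, 0.00511), Sdhb (0.88, 0.0196) and Sdhc (0.84, 0.0319). Succinate dehydrogenase is the enzyme that itaconate inhibits. Its catalytic subunit Sdha had -0.01 with an edgeR adjusted p of 1.

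Of 19 transcription factors and receptors known to act on Arg1, Nos2 or Acod1, 6 rose and 3 fell. Hif1a, the hypoxia-inducible factor, rose by 1.94 (edgeR adjusted p 0.000511) in 8 of 8 pairs, from 47.0 to 181 CPM on the non-injured side to 151 to 807 CPM at the wound, and passed alone at day 4 (2.52, edgeR adjusted p 0.0247). Cebpb rose by 1.46 (0.0436) and the interleukin 4 receptor Il4ra by 1.15 (0.0091), and Klf4 fell by 1.41 (0.0412), with edgeR adjusted p in brackets. Also called, and named after their values were seen, were Stat3 (0.64) and Pparg (2.53, from 0.751 to 4.15 CPM). The interferon gamma receptor chain Ifngr1 and the interleukin 10 receptor Il10ra fell by 0.85 and by 0.92, and were called alone at day 1, where they fell by 1.76 and by 1.92 (edgeR adjusted p 0.0361 and 0.0452). Stat6, through which interleukin 4 acts on Arg1, had 0.64 with an edgeR adjusted p of 0.0856, and the NF-kB subunits Nfkb1 (-0.43) and Rela (0.06) did not pass.

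**Figure D5:**
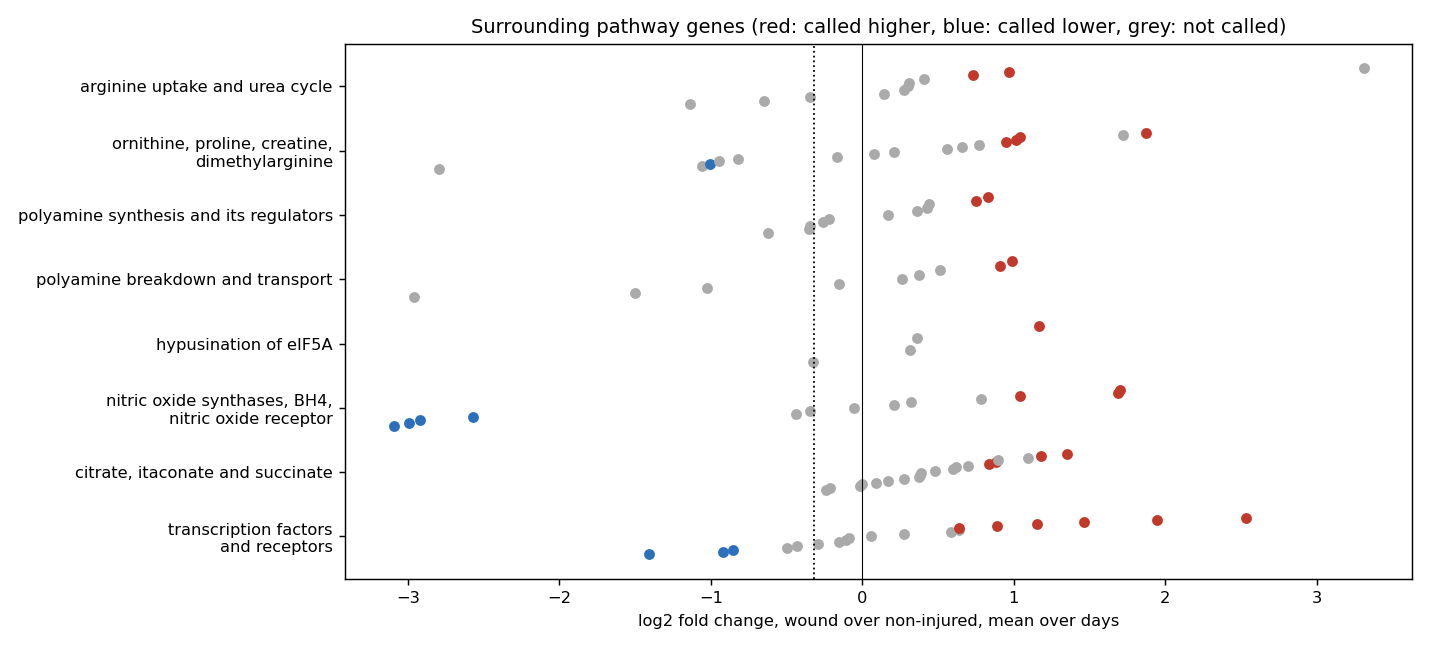
Log2 fold change, wound over non-injured, as the mean over 4 days (horizontal axis) of the tested genes of 8 pathway lists (vertical axis); red genes were called higher, blue ones lower and grey ones not called, and the dotted line is the median of all genes at -0.32. Called genes are 24 higher and 8 lower of 103, and 4 of the 8 lower ones are in the nitric oxide list.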

How the data were processed

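Cells were sorted by EYFP and RNA was made into cDNA with SMART-Seq v4 and Nextera XT libraries, per the labels' protocols; this kit is unstranded. Salmon 1.0.0 and DESeq2 1.26.0 were used per the submitters' processing notes, with genome build and annotation not given in the sources used here. Values deposited by the authors are expected counts per gene (estimated, not normalized) and TPM. Their comparison tables, also deposited by the authors, give each gene's log2 fold change and adjusted p-value, per the file headers. Coordinates are from GENCODE M21 (GRCm38), in which 55144 of 55385 IDs were found when versions were ignored, and Nos2 carries another version there.

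The 32 columns were rounded after the 2 of each group were summed, giving 16 libraries of 20863982 to 55378788 reads. Testing used edgeR 4.0.16 under R 4.3.3 (quasi-likelihood, TMM, filterByExpr at a minimum count of 10), with 8 pair means and 4 day effects of injury (4 residual and 5.32 prior degrees of freedom). Genes were called at an adjusted p under 0.05 (Benjamini-Hochberg) over all genes tested. The test was also run on simulated data. There the injury effect was the same at all days and in both sexes, so effects that differ between them were not covered. SE is the standard error of a log2 change. Alternatives were median-ratio factors, DESeq2 1.42.0, no filter, limma 3.58.1 on log2(TPM + 1), 32 separate columns with and without a replicate block, no pairing, and each pair left out; those for pathway genes, and the marker sums without their largest member, were added after the values were seen. The genes, pathway lists and marker lists were chosen with earlier results of these data known. Besides the 8 genes, the text names up to 4 called genes per pathway list at a mean of at least 10 CPM with the largest change, up to 2 called at a single day, the 3 genes most like each of the 8 in Pearson correlation, and the markers Ccr2, Ly6c2, S100a8, S100a9, Mrc1, P2ry12 and Tmem119. Other genes, among them Camp, Ngp, Cxcr2, Mmp9, Csf3r, Ighm, Clec4e, Fn1 and the pathway genes that did not pass, were chosen after their values were seen. Some genes of the pathway lists are counted but not reported here by name.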

Additional observations from a re-analysis of the deposited data

Results flagged for a closer look

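The level of each of the 8 genes was examined for a library far from the others in the 8 wound and in the 8 non-injured libraries, 16 sets in all, on the log2(CPM + 1) scale. The male day 7 non-injured library was the highest for Arg1 at 157 CPM, with the next library at 1.60 CPM, and the gap took up 0.851 of the whole range. The same library was the highest for Acod1 at 61.1 CPM, with the next at 1.32 CPM and a gap of 0.796 of the range. Both gaps exceed Dixon's critical value of 0.526 for 8 samples, which chance exceeds at a rate of about 0.05 per set. This library also had the highest monocyte marker sum of its side (262 CPM), and the part of that in its Arg1 and Acod1 levels was not tested. Without it the mean of the non-injured libraries changes from 20.3 to 0.774 CPM for Arg1 and from 7.99 to 0.407 CPM for Acod1.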

How the results depend on the processing

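For the mean over days, Arg1, Arg2 and Acod1 passed in each of the 13 alternatives that keep 1 library per group (ranges 3.55 to 5.66, 1.85 to 4.84 and 2.43 to 6.72 on the log2 scale). Ass1 passed in 11, Asl in 2 and Odc1 in 1, and all 6 genes kept the same direction. Leaving out 1 pair gave 3 to 5 genes called, against 6, beside 4.52% to 12.1% of all genes, against 15.7%. The lowest count came without the day 1 female or the day 7 female pair (4.52% and 7.46% of all genes). At day 1 (2 called) DESeq2 gave 5 (beside 15.1% of all genes), no pairing 1 (0.042%) and the fits without a pair of another day 2 to 3 (0.137% to 2.31%). At day 4 (3 called) no pairing gave 0 (0.0664%) and the fits without a pair of another day 0 to 2 (0% to 1.87%). A fit without a pair of the day itself keeps 1 library per side there and is not counted here. At day 7 (0 called) DESeq2 gave 2 (12.7%) and the fits without a pair of another day 0 to 2 (0% to 1.89%). At day 14 (0 called) DESeq2 gave 3 (12.3%). For a difference between days (0 called) DESeq2 and limma each gave 1 (1.35% and 0.00322% of all genes), and between sexes (0 called) DESeq2 gave 1 (0.919%). Across days at the wound (0 called) DESeq2 gave 2 (1.57%) and no filter 2 (0.993%), and on the non-injured side (0 called) no filter gave 2 (0.0588%). Each fit without 1 pair leaves 1 library at that day, so these fits are not counted here for the tests across days.

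With the 32 columns as separate samples, the spread is close to counting noise. The counts were then 6, 6, 7 and 4 at days 1, 4, 7 and 14 (beside 49.4%, 45.1%, 62.1% and 50.9% of all genes). They were 8 for a difference between days (63.6%) and 5 between sexes (38.3%). Across days they were 5 at the wound (50.3%) and 4 on the non-injured side (18.9%). With a replicate block on those columns the counts were the same except for 4 across days at the wound. The shares of all genes across days were then 45% at the wound and 13.6% on the non-injured side. The replicate numbers were not taken as pairs of animals, since the labels do not say so. Directions turned in limma on TPM for Asl at day 1 (-0.27) and Odc1 at day 7 (-0.43). Leaving out 1 pair also turned the direction of Asl at day 1 (-0.2443 without the female day 1 pair, 0.3671 without the male), of Slc7a2 at day 4 (0.6382 without the male day 4 pair, -1.9242 without the female), of Nos2 at day 7 (-4.9476 without the male day 7 pair, 3.9444 without the female), of Odc1 at day 7 (-0.0354 without the female day 7 pair, 1.6117 without the male) and of Odc1 at day 14 (0.0008 without the female day 14 pair, -0.8946 without the male); none of these was called. The cause of each change was not tested. Median-ratio factors moved the median of all genes for the mean over days from -0.32 to -0.44, and Odc1 (0.76) and Asl (0.53) then missed the threshold. Nos2 had at most 23 counts in any non-injured library, which limits what its test can show.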
